A study of Mus musculus with 6 samples.

Results

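Messenger RNA of 8 complement genes was followed in monocytes, circulating phagocytes made in the bone marrow, after exposure to GM-CSF, the granulocyte-macrophage colony-stimulating factor, which drives the growth and activation of myeloid cells. The genes were taken by symbol from a table of 24421 gene entries. They are C1qa, C1qb and C1qc, which encode the chains of C1q, C3, the factor B gene Cfb, the properdin gene Cfp, and the receptor genes C3ar1 and C5ar1. Monocytes had been sorted from the marrow of B6 mice, for which the labels name no engineered allele. The 3 GM-CSF libraries came from cells stimulated for 3 h with 5 ng of the cytokine, with no volume given, and the 3 control libraries from cells that 1 label calls freshly isolated. Other labels mention 3 h in medium with or without GM-CSF, so it is unclear whether control cells were cultured, and time in culture cannot be told apart from GM-CSF. Whether the replicates are separate mice or cultures is not stated, so the p-values below measure the spread between these libraries, which may be technical.

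Complement is a set of blood and cell surface proteins that mark microbes and debris. In the classical route C1q binds antibody or damaged surfaces, in the lectin route ficolins and related proteins bind sugars, and in the alternative route factor B joins deposited C3b to form an enzyme that cleaves more C3, with properdin holding that enzyme together. Cleavage of C3 and C5 releases the small peptides C3a and C5a, which act on myeloid cells through the receptors encoded by C3ar1 and C5ar1. Much of the C3 in blood is made in the liver, while monocytes and macrophages make several components locally, C1q and properdin among them.

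The libraries held 16643228 to 21468929 reads in genes with GM-CSF and 20782467 to 25232956 in control. Levels are given as CPM, a gene's reads scaled to the same total of gene reads in each library, and 3 reads, the most that a count of 0 allows, equal 0.140 to 0.180 CPM in GM-CSF and 0.119 to 0.144 CPM in control libraries. All 8 monocyte markers listed were detected, and they summed to 29168 to 31909 CPM with GM-CSF and 62967 to 72298 CPM in control. Most of each sum was Lyz2, at 20377 to 22481 CPM with GM-CSF and 50848 to 59378 CPM in control. Of the 8 markers, 5 fell (Lyz2, Ccr2, Cx3cr1, F13a1 and Ly6c2) and 1 rose, Cd14, by 4.43 on the log2 scale. Of all genes tested, 31.2% fell and 32.8% rose by the test given below. Csf1r stood at 1596 to 1666 CPM with GM-CSF and 1362 to 1602 CPM in control. The sorted cells also held transcripts of 13 genes listed as markers of neutrophil granules and precursors. These summed to 16604 to 20766 CPM with GM-CSF and 28877 to 39759 CPM in control. Much of each sum came from S100a8 and S100a9, which both fell. They stood at 3049 to 3938 and 2528 to 3121 CPM with GM-CSF, against 6560 to 9631 and 5414 to 7832 CPM in control. Of these 13 genes, 7 fell and 1 rose (Ctsg, log2 fold change 0.31), beside 31.2% and 32.8% of all genes. Elane, Mpo and Prtn3 were among those that did not pass the test. B and plasma cell markers summed to 36.9 to 49.3 CPM with GM-CSF and 75.0 to 81.7 CPM in control. In the same order, T and NK cell markers summed to 2.64 to 3.12 and 2.71 to 3.53 CPM. Dendritic cell markers summed to 6.75 to 9.18 and 14.7 to 17.8 CPM. Of the 5 dendritic cell markers, 2 fell and 1 rose (Zbtb46, log2 fold change 1.63), beside 31.2% and 32.8% of all genes. Basophil and mast cell markers summed to 2.42 to 16.4 CPM with GM-CSF and 4.79 to 14.0 CPM in control, erythroid markers to 0.326 to 0.477 and 1.15 to 1.59 CPM, and stromal markers to 1.38 to 2.56 and 0.917 to 2.02 CPM. Of 3 liver markers, Alb and Ttr had 0 reads and Apoa1 had 9 reads with GM-CSF and 0 in control. Whether these shifts in marker levels had a part in the results below was not tested. In bulk RNA, fewer cells of a type and less RNA per cell cannot be told apart.

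GM-CSF libraries carried far more receptor RNA and less C3 and factor B RNA, and C1q RNA was scarce in both groups. C3ar1 was 59.0-fold and C5ar1 7.71-fold higher with GM-CSF, while Cfb was 3.40-fold and C3 1.59-fold lower. The edgeR quasi-likelihood test, with a threshold of 0.05 on the adjusted p, called 5 of the 8 genes, with 3 higher and 2 lower in GM-CSF libraries. Among all 11731 genes tested, 64.0% passed, 32.8% higher and 31.2% lower, so the count of 5 of 8 is close to the background share. The median log2 fold change was 0.27 over the 8 genes and 0.0072 over all genes. The levels did not overlap between groups for the same 5 genes, beside 69.5% of all genes (34.9% higher and 34.7% lower).

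**Figure D1:**
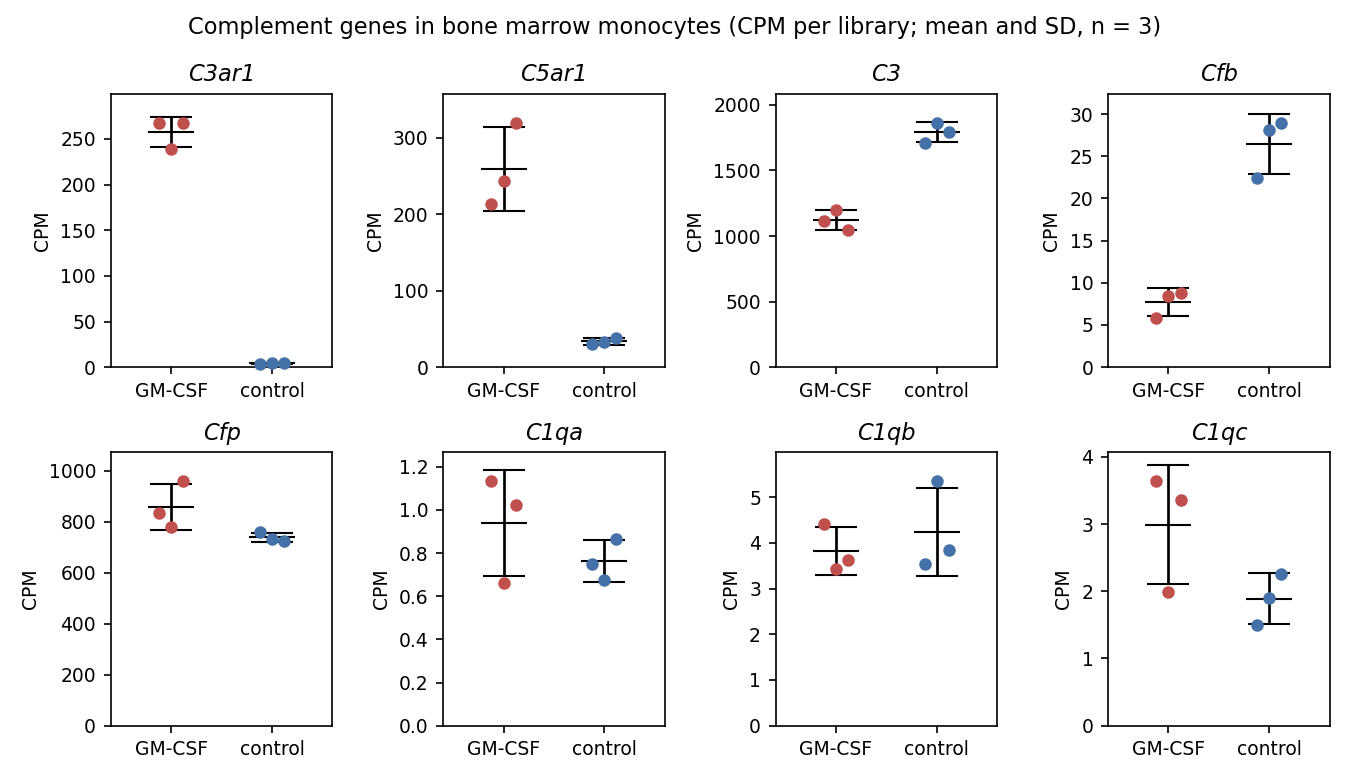
Levels of the 8 complement genes in CPM (vertical axes, each from 0) in 3 GM-CSF libraries (left) and 3 control libraries (right); points are libraries, bars the mean and SD. C3ar1 and C5ar1 lie higher and C3 and Cfb lower in every GM-CSF library than in any control library, while the 3 C1q genes overlap between groups.

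The receptor genes showed the largest changes. C3ar1 encodes the receptor for C3a, lies on chromosome 6 at 122847138 to 122856161 (GRCm38, minus strand) and is protein-coding. It stood at 268, 238 and 267 CPM in the GM-CSF libraries, against 3.96, 4.52 and 4.72 CPM in the control libraries. The lowest GM-CSF library was thus far above every control library, and the spread within each group was small. The log2 fold change was 5.88 ± 0.11 (SE; edgeR adjusted p = 2.07e-11), in place 85 among the rises of all genes tested. The control value rests on 307 reads in 3 libraries, against 14196 reads with GM-CSF.

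C5ar1 encodes the main receptor for C5a, a strong attractant of phagocytes, and lies on chromosome 7 at 16246743 to 16259540 on the minus strand. Its levels were 214, 244 and 319.7 CPM with GM-CSF, against 29.8, 33.3 and 38.5 CPM in control. GM-CSF replicate 3 stood above the other GM-CSF libraries, and all 3 lay well above control. The log2 fold change was 2.95 ± 0.15 (edgeR adjusted p = 3.35e-08), and 2.77 without GM-CSF replicate 3. The second C5a receptor gene, C5ar2, rose as well, to 44.0 ± 2.33 CPM with GM-CSF, against 11.6 ± 2.53 CPM in control (SD, n = 3 each; log2 fold change 1.93 ± 0.14, edgeR adjusted p = 6.05e-07).

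The balance between the anaphylatoxin receptors differed between the groups. Within each library, C5ar1 had 0.799, 1.02 and 1.20 reads per read of C3ar1 with GM-CSF, against 7.53, 7.36 and 8.16 in control. Reads of both receptors were near parity with GM-CSF, and C5ar1 reads were in clear excess in every control library. Per length of exon the ratio was 1.34, 1.71 and 2.00 with GM-CSF and 12.6, 12.3 and 13.7 in control. The log2 ratio of reads was lower by 2.95 with GM-CSF (-0.011 ± 0.29 in GM-CSF and 2.94 ± 0.079 in control, SD, n = 3 each; exact two-sided permutation p = 0.1, the smallest that 3 against 3 libraries allow). A ratio within a library does not depend on how libraries are scaled.

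The DNA sequences before the RefSeq starts of C3ar1 and C5ar1, which rose, and of C3, which fell, are shown because these are the members with the largest rises and the most abundant member that fell. RefSeq windows on GRCm38.p6 were found for 6 of the 8 members, all but C1qa and Cfb, and the stretches printed are the run of each window before the start that lies in no GENCODE exon. The C5ar1 stretch lies inside the GENCODE gene, between annotated exons. All run 5′ to 3′ on the minus strand, at chr6:122856162-122856407, chr7:16259339-16259512 and chr17:57228137-57228386, and capitals mark matches to the motifs named after them.
C3ar1: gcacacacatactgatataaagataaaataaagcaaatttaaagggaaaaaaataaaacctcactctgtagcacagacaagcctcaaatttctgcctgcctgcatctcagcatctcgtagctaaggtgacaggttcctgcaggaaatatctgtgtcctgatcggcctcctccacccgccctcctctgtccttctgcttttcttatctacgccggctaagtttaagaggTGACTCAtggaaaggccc
C5ar1: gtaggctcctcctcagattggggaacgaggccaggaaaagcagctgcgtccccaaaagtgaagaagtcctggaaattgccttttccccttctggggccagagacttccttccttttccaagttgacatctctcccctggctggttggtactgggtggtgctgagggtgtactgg
C3: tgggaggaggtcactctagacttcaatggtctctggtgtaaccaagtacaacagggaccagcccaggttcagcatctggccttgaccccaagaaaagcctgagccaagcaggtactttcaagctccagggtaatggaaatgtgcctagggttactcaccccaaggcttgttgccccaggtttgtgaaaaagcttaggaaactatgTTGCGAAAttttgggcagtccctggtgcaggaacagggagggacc
Windows of 250 bases before to 50 after the start were searched on both strands for TTCNNNGAA (STAT), the interferon response element, GAGGAAG (PU.1) and TGCTGAC (MAF), and, chosen after the sequences had been read, for TGANTCA (AP-1) and TTGCGNAA (C/EBP). C3ar1 held TGANTCA at bases -22 to -16 from the start, a motif in 7.81% of all 32851 windows, and C3 held TTGCGNAA at -45 to -38, a motif in 0.798% of them. C1qc held GAGGAAG on the opposite strand at -194 to -188, beside 13.6% of all windows. The windows of C5ar1, C1qb and Cfp matched none of the 6 motifs, and TTCNNNGAA, the interferon response element and TGCTGAC, found in 8.30%, 3.44% and 4.67% of all windows, were in none of the 6 members' windows. These are matches of letters, not binding sites.

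Besides C3ar1 and C5ar1, 3 of the 5 receptor genes tested in the wider complement list rose. Of all 9 receptor genes listed, 7 were tested, 5 rose and none fell. This was 71.4% called, beside 64.0% of all genes (32.8% higher and 31.2% lower). Their median log2 fold change was 1.76, and 0.56 without C3ar1 and C5ar1. The remaining receptor genes, Cr2 and Vsig4, had too few reads to be tested. Itgax, the alpha chain of complement receptor 4, rose to 4.34 ± 0.862 CPM with GM-CSF, against 1.29 ± 0.387 CPM in control (log2 fold change 1.76 ± 0.29, edgeR adjusted p = 3.28e-04). Itgam, the alpha chain of complement receptor 3, stood at 794 ± 55.7 CPM with GM-CSF and 882 ± 55.1 CPM in control (log2 fold change -0.14 ± 0.079, adjusted p = 0.131 by edgeR), and with upper quartile scaling it passed the test as lower (-0.26). Itgb2, the beta chain that both integrins share, stood at 1145 ± 68.0 and 1050.4 ± 98.6 CPM (0.13 ± 0.093, edgeR adjusted p = 0.235). Cd93, once described as a C1q receptor, was at 56.7 ± 17.4 CPM with GM-CSF and 38.5 ± 2.94 CPM in control, with overlapping libraries (0.56 ± 0.19, edgeR adjusted p = 0.0212). That call was lost with a robust prior, with upper quartile scaling and without GM-CSF replicate 1 (0.31) or control replicate 2 (0.58) or 3 (0.49).

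**Figure D2:**
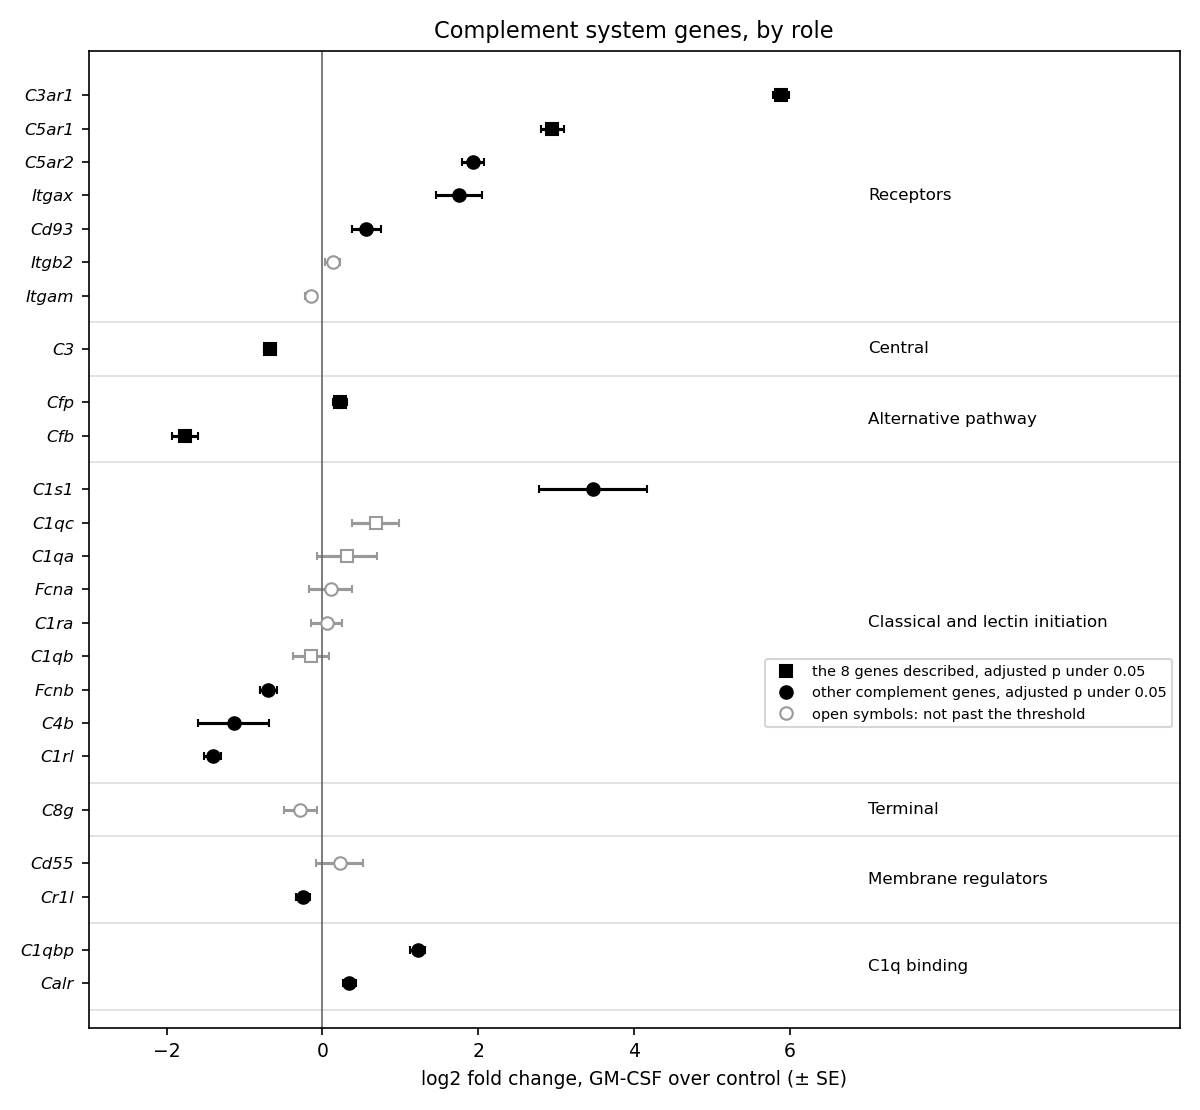
Log2 fold change of GM-CSF over control with SE (horizontal axis) for complement genes, grouped by role; squares are the 8 genes described here, filled symbols passed an edgeR adjusted p of 0.05. Receptor genes lie at or to the right of -0.14, with C3ar1 at 5.88, and C3, Cfb, C1rl, C4b, Fcnb and Cr1l lie left of 0 with filled symbols.

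C3, the protein on which all routes of complement converge, was abundant and lower with GM-CSF. The gene lies on chromosome 17 at 57203970 to 57228136 on the minus strand. It stood at 1117, 1198 and 1047 CPM in GM-CSF libraries, against 1713, 1863 and 1797 CPM in control libraries. The groups did not overlap, and each varied little. The log2 fold change was -0.67 ± 0.077 (edgeR adjusted p = 1.89e-05), with 61158 reads in the GM-CSF and 125481 in the control libraries.

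Cfb, which encodes the protease that joins C3b in the alternative route, fell further. It lies on chromosome 17 at 34856374 to 34862518 on the minus strand. It overlaps an annotated readthrough gene on the same strand, not analysed here, that also overlaps the neighbouring gene C2, and it holds Mir6972, as C3 holds Mir6978. The readthrough gene has no entry of its name among the genes counted, while both microRNA genes have one. Reads shared by overlapping entries may have been set aside as ambiguous, and whether this touched the values was not tested. Cfb levels were 5.84, 8.47 and 8.85 CPM with GM-CSF, against 22.4, 28.1 and 29.0 CPM in control. No library of either group came near the other group. The log2 fold change was -1.76 ± 0.17 (edgeR adjusted p = 4.98e-06).

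C3 reads outnumbered Cfb reads in every library, and more so with GM-CSF. The ratio was 191, 141 and 118 with GM-CSF, against 76.6, 66.4 and 62.0 in control. On the log2 scale it was higher by 1.11 with GM-CSF (7.20 ± 0.35 in GM-CSF and 6.09 ± 0.15 in control, SD, n = 3 each; exact two-sided permutation p = 0.1, the smallest possible). The lowest ratio among GM-CSF libraries lay above the highest in control.

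Cfp encodes properdin and lies on the X chromosome at 20925454 to 20931555 on the minus strand. It stood at 835, 781 and 958 CPM with GM-CSF, against 759, 733 and 724 CPM in control. The lowest GM-CSF library lay just above the highest control library. The log2 fold change of 0.22 ± 0.088 passed narrowly (edgeR adjusted p = 0.0440). The call was lost with size factors of the DESeq2 kind (0.22, adjusted p = 0.0505 by edgeR), with upper quartile scaling (0.11), which lowered the median of all genes by 0.12, and without the 10 most abundant genes (0.20). It was also lost without GM-CSF replicate 1 (0.23) or 3 (0.14) or any control library (0.19 to 0.25).

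**Figure D3:**
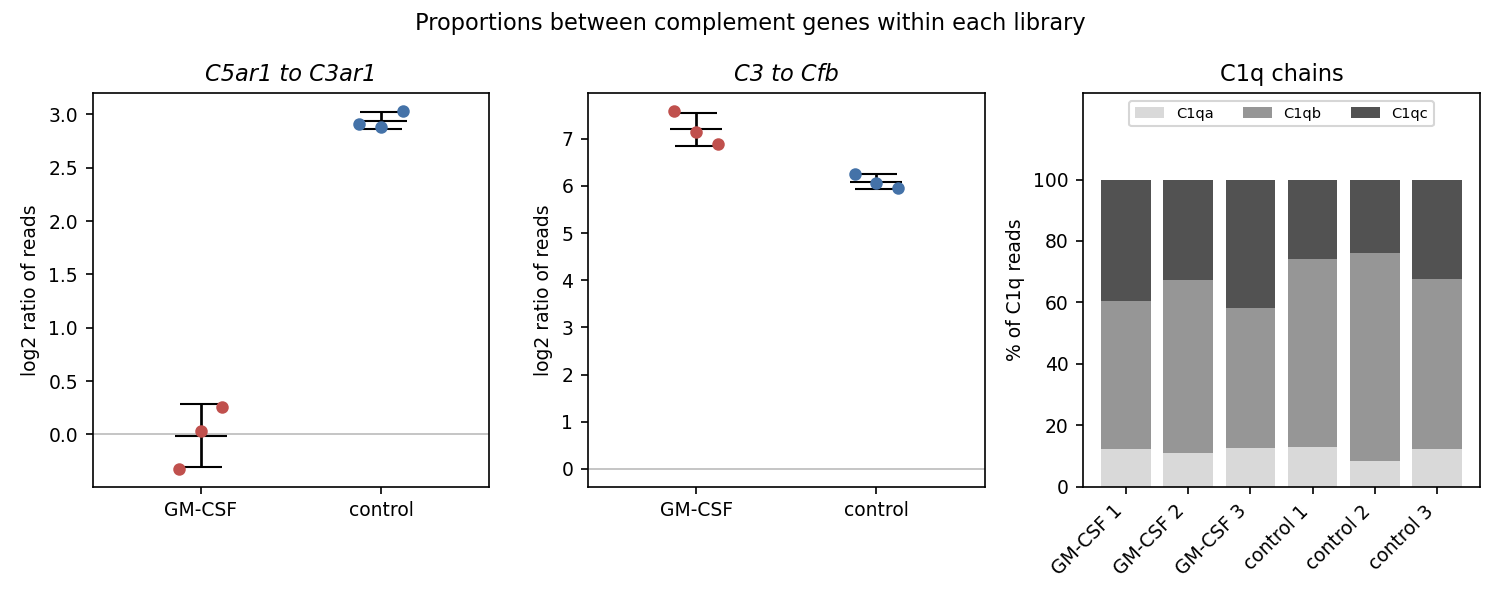
Log2 ratio of C5ar1 to C3ar1 reads and of C3 to Cfb reads per library (points; bars show mean and SD), and the percentage of C1q reads from each chain per library (stacked bars), with GM-CSF left of control. The C5ar1 to C3ar1 ratio lies at -0.32 to 0.26 with GM-CSF and 2.88 to 3.03 in control, and C1qb is the largest share of C1q reads in all 6 libraries.

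The C1q chains are encoded by neighbouring genes on the minus strand of chromosome 4, C1qb at 136880129 to 136886187, C1qc at 136889804 to 136893065 and C1qa at 136895917 to 136898803. Equal numbers of the A, B and C chains build the C1q protein, which tissue macrophages make in large amounts. Here the 3 genes together stood at 9.18, 6.07 and 8.01 CPM with GM-CSF, against 5.79, 7.93 and 6.98 CPM in control. The groups overlapped, and none of the 3 genes passed the test.

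C1qa had 19, 11 and 22 reads with GM-CSF, against 18, 17 and 18 reads in control (log2 fold change 0.32 ± 0.39, edgeR adjusted p = 0.489). C1qb had 74, 57 and 78 reads, against 85, 135 and 80 reads in control (-0.15 ± 0.23, edgeR adjusted p = 0.594), and its sign turned without control replicate 2 (0.054). C1qc had 61, 33 and 72 reads, against 36, 48 and 47 reads in control (0.68 ± 0.31, edgeR adjusted p = 0.0733). Since depths differ, the groups were compared in CPM, where they overlapped for each chain. C1qc passed the test as higher without GM-CSF replicate 2 (0.91, edgeR adjusted p = 0.0257) and with a correction for GC content (0.75, adjusted p = 0.0493 by edgeR). The error of C1qa was larger than that of C1qc, which did not pass at 0.68 in the main test. At this depth a change of C1qa well above its error could thus also have been missed.

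C1qb gave the largest share of C1q reads in each library, at 48.1%, 56.4% and 45.3% with GM-CSF, against 61.2%, 67.5% and 55.2% in control. C1qc gave 39.6%, 32.7% and 41.9% with GM-CSF, against 25.9%, 24.0% and 32.4% in control. The C1qc share was higher by 10.6 percentage points with GM-CSF, with no overlap (38.0 ± 4.79% in GM-CSF and 27.4 ± 4.41% in control, SD, n = 3 each; exact two-sided permutation p = 0.1, 0.3 adjusted over the 3 chains). The C1qb share was lower by 11.3 points (-11.3, exact permutation p = 0.2, adjusted 0.3) and C1qa gave 12.0 ± 0.992% and 11.3 ± 2.43% (exact permutation p = 0.9). Divided by exon length, C1qb still led with 55.1% to 65.4% with GM-CSF and 63.8% to 75.1% in control.

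Macrophage markers were read beside C1q. Of 12 tissue macrophage genes listed, 9 were tested, 3 rose and 2 fell (beside 32.8% and 31.2% of all genes), and the sum of all 12 was 401 to 536 CPM with GM-CSF and 316 to 365 CPM in control, most of it Adgre1. Vsig4, Timd4 and Folr2 were near 0, with 1, 4 and 1 reads with GM-CSF and 2, 6 and 12 reads in control. Mrc1 and Mertk rose (log2 fold change 2.06 and 2.17), and Siglec1 and Cd163 fell (-3.04 and -2.12). The part of such cells in the C1q and receptor values was not tested.

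**Figure D4:**
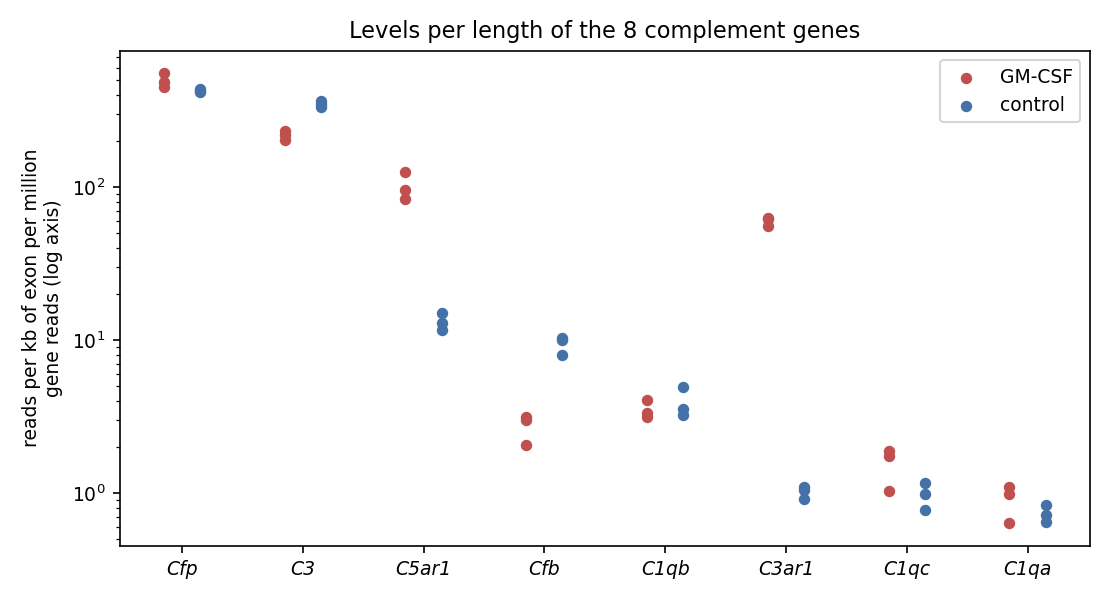
CPM per kb of exon (RPKM, vertical log axis) of the 8 complement genes in each of 3 GM-CSF (left of each pair) and 3 control libraries (right), ordered by the control mean. Cfp leads in both groups, and C3ar1 stands at a mean of 59.9 with GM-CSF and 1.02, beside C1qc, in control.

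Per length, in CPM per kb of exon (RPKM), levels differed widely between the genes. With GM-CSF the order was Cfp at 494 ± 52.4, C3 at 218 ± 14.7, C5ar1 at 101 ± 21.2, C3ar1 at 59.9 ± 3.88, C1qb at 3.51 ± 0.477, Cfb at 2.73 ± 0.580, C1qc at 1.55 ± 0.458 and C1qa at 0.903 ± 0.238 RPKM (SD, n = 3). In control it was Cfp at 425 ± 10.5, C3 at 348 ± 14.6, C5ar1 at 13.2 ± 1.70, Cfb at 9.37 ± 1.26, C1qb at 3.90 ± 0.889, C3ar1 at 1.02 ± 0.0911, C1qc at 0.978 ± 0.197 and C1qa at 0.734 ± 0.0931 RPKM. Neighbours in this order whose libraries overlapped were C1qc and C1qa with GM-CSF, and C3ar1 and C1qc as well as C1qc and C1qa in control. By level among 11286 tested genes with a known length, Cfp stood at place 65 with GM-CSF and 87 in control, C3 at 211 and 117, and C3ar1 at 956 and 9061.

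Of 60 genes listed for the wider complement system, 25 were tested, of which 9 rose and 7 fell, a share of 64.0% beside 64.0% of all genes. Without the 8 members, 6 of 17 tested rose and 5 fell, with a median log2 fold change of 0.11. A further 16 listed genes had 0 reads in every library, 18 had too few reads to be tested, and 1 had no entry among the genes counted. C7, C8a, C8b and the factor I gene Cfi had 0 reads. C8g, the only tested gene of 7 listed for the terminal components, had 267 reads with GM-CSF and 411 in control (4.81 and 5.90 CPM). It did not pass the test (log2 fold change -0.28 ± 0.21, edgeR adjusted p = 0.266). The C5 gene Hc had 1 read with GM-CSF and 0 in control, the adipsin gene Cfd 13 and 15 reads, the C1 inhibitor gene Serping1 2 and 1 reads, C2 9 and 13 reads, and the membrane attack inhibitor gene Cd59a 7 and 4 reads.

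Among 6 other tested genes of classical and lectin initiation, 1 rose and 3 fell, a share of 66.7% beside 64.0% of all genes. C1rl, which encodes a protease related to C1r, fell to 22.1 ± 0.729 CPM with GM-CSF, against 59.1 ± 7.91 CPM in control (log2 fold change -1.41 ± 0.11, edgeR adjusted p = 8.68e-07). The ficolin gene Fcnb, expressed in cells of the bone marrow, fell to 519 ± 32.4 CPM, against 845 ± 150.1 CPM in control (-0.69 ± 0.11, edgeR adjusted p = 1.86e-04). In the same libraries, 7 of the 13 genes listed as neutrophil granule and precursor markers fell and 1 rose, beside 31.2% and 32.8% of all genes. Their part in the Fcnb value was not tested. C4b had 34 reads with GM-CSF and 96 in control (-1.14 ± 0.46, edgeR adjusted p = 0.0473), a call lost with limma-voom, DESeq2, the replicate block, the GC correction, no filter and without any single library other than GM-CSF replicate 2 (-1.32 to -0.72). The C1s gene C1s1 had 72 reads with GM-CSF and 8 in control, 7 of them in control replicate 2 (3.47 ± 0.69, edgeR adjusted p = 0.00116, and 5.52 without that library). C1ra and Fcna did not pass (0.053 and 0.11).

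Of the 8 membrane regulators listed, Cr1l and Cd55 were tested, and Cr1l fell. Cr1l, the mouse membrane regulator Crry, was at 78.1 ± 8.78 CPM with GM-CSF and 93.2 ± 4.80 CPM in control (-0.25 ± 0.096, edgeR adjusted p = 0.0394), a call lost without GM-CSF replicate 3 (-0.15) or control replicate 1 (-0.22) or 2 (-0.23). Cd55, which speeds the decay of C3-cleaving enzymes, had 102 reads with GM-CSF and 112 in control (0.22 ± 0.30, edgeR adjusted p = 0.534). Of proteins that bind C1q, C1qbp, which is mainly mitochondrial, rose to 85.5 ± 7.37 CPM, against 36.9 ± 1.38 CPM in control (1.22 ± 0.091), and the chaperone gene Calr rose by 0.34 ± 0.082 (edgeR adjusted p = 6.81e-07 and 0.00362).

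Genes with the most similar profile were sought by the root mean square difference of centred log2 CPM over the 6 libraries, among genes outside the complement list. For C3ar1 these were the short-chain dehydrogenase gene Dhrs9 (0.18) and Csf1 (0.19), which encodes macrophage colony-stimulating factor and stood at 205 CPM with GM-CSF and 2.81 CPM in control. For C5ar1 they were the transcription regulator genes Runx1 (0.18) and Id1 (0.20), and for C3 the genes Phf7 (0.023) and the DNA helicase gene Wrn (0.029). For Cfb they were Mocs1 (0.080), of molybdenum cofactor synthesis, and the mitochondrial thymidine kinase gene Tk2 (0.091), and for Cfp Ndnl2 and Pfdn1 (0.027 and 0.031). The C1q chains were matched by genes at similar distances, C1qa by Ski and Fbxl15 (0.11 and 0.12), C1qb by Herc1 and Ubxn6 (0.10 and 0.11) and C1qc by Wrb and Baiap2 (0.18 each). Among the members, C1qa stood in place 40 of 11730 genes by likeness to C1qc, and C1qb in place 4578. By likeness to C1qa, C1qc stood in place 723, behind Cfp in place 178. The C1qa profile rests on 11 to 22 reads per library.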

How the data were processed

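Poly(A) RNA was sequenced as read pairs from 3 GM-CSF and 3 control libraries, grouped by the sample labels. The authors deposited unnormalized counts of reads for each gene. Tools listed in the submitters' processing notes, with no roles, are HTSeq 0.6.1p1, STAR 2.5.2a, Trim Galore 0.4.4 and edgeR, with the build mm10. No source used here gives the annotation or says whether counting used strand. Entries that name no gene (7.82% to 9.72% outside genes, 1.44% to 1.53% ambiguous, 18.0% to 19.6% not unique) were left out. The test was that of edgeR 4.0.16 under R 4.3.3 (TMM, filterByExpr with a minimum count of 10, quasi-likelihood F test, group as the only term), with Benjamini-Hochberg adjustment over all 11731 genes tested and a threshold of 0.05. The filter kept all 8 members. The SE was taken as the size of the log2 fold change over the root of the F statistic. This SE includes the spread between libraries, while the limit of 3 reads for a count of 0 covers counting error only. Exon lengths and coordinates came from GENCODE M21 on GRCm38, which matched 23334 of 24421 symbols. Ratios and shares were compared by exact permutation tests (scipy 1.17.1). Named genes were the members, all other called complement genes whose mean log2 CPM reached 1, a short list named whatever its values, and for each member the 2 most similar genes of mean log2 CPM at least 3. C1s1, C1ra, Fcna, C7, C8a, C8b, C8g, Cfi, Cr2 and Vsig4 fall outside this rule and were named after their values were seen. Members and lists were chosen with earlier results of these data known, and motifs TGANTCA and TTGCGNAA and the GC correction (loess, span 0.5) were added after seeing the data. Alternatives included other scalings and filters, a robust prior, a replicate block, limma-voom (limma 3.58.1), DESeq2 1.42.0, removal of the 10 most abundant genes and each library in turn. A gene of the wider list is counted but not reported here by name. The procedure was tested on simulated data.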

Additional observations from a re-analysis of the deposited data

How the results depend on the processing

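C3ar1, C5ar1, C3 and Cfb kept their direction and passed the threshold under all 17 alternatives, with log2 fold changes of 5.72 to 5.95, 2.77 to 3.06, -0.79 to -0.62 and -1.88 to -1.61. Cfp passed under 9 of 17. It was lost with size factors of the DESeq2 kind (0.22), upper quartile scaling (0.11) and without the 10 most abundant genes (0.20), and ran from 0.14 to 0.30 with 1 library left out, where the 5 losses given above fell. C1qc was called with the GC correction (0.75) and ran from 0.51 to 0.91 with 1 library left out. C1qb ran from -0.27 to 0.054 with 1 library left out, C1ra from -0.069 to 0.18 and Fcna from -0.14 to 0.23, and upper quartile scaling turned C1ra (-0.064) and Fcna (-0.011). The causes were not tested. Members higher numbered 2 to 4 and members lower 2 in each setting. Across the wider list, 7 to 10 rose and 5 to 8 fell. A filter of at least 1 CPM in 3 libraries gave no value for C1qa and C1s1.

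The replicate block, which takes the number in the title as a term, called 3848 genes higher and 3645 lower, beside 3851 and 3660 without it, and changed no call among the members (Cfp 0.22). The numbers were not taken to pair samples, since no label says that they do. Deviations of same-numbered libraries correlated at 0.0727, 0.00984 and 0.00380, and not every library correlated best with its own number. With 3 libraries per group this check cannot settle whether samples were paired. Paired sign permutations of the ratios and shares cannot go below 0.25. With under 25 reads per library, C1qa was limited by depth.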
